A study of Mus musculus with 21 samples.

Results

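The comparison set Lmo2-disrupted lymphoid progenitors (LPs) against LPs in which Zbtb1, Cbfa2t2 or Cbfa2t3 was disrupted, with the latter pooled as 1 group. It used 12 of the 21 samples of the series, namely the QuantSeq 3′ mRNA libraries labelled sgLmo2 (3) and those labelled sgZbtb1, sgCbfa2t2 and sgCbfa2t3 (3 each, 9 in all). The members were chosen by the labels, and 11510 of 55421 genes had a mean above 1 TPM over these 12 libraries and were tested. All libraries came from 1 cell line of Ebf1-deficient LPs on a C57BL6/J background, maintained on OP9 stromal cells with SCF, IL-7 and Flt3L. Cells of every group, the luciferase-targeted sgControl included, carried retroviral Cas9-GFP, received a pool of 2 sgRNA vectors per gene, and were sorted as GFP+hNGFR+ cells 5 days after sgRNA transduction. The groups were thus sorted mixtures of edited alleles in 1 line, and replicates were separate cultures as far as the study's methods state. The 3 sgControl libraries stayed out of the fit, and their means are given for the genes described most closely.

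Lmo2 is a LIM-only protein that does not bind DNA itself but bridges basic helix-loop-helix factors such as Tal1 or Lyl1 with their E-protein partners, Gata factors and Ldb1. It is highest in stem and progenitor cells and is shut off as T-lineage commitment proceeds. Cbfa2t3 and Cbfa2t2 are paralogous ETO-family corepressors that recruit histone deacetylases, and Zbtb1 is a BTB-domain zinc finger factor required for lymphoid development. Because these proteins can act in shared complexes, a direct comparison between their disruptions shows which transcripts stood apart in sgLmo2 LPs from those of the other disruptions.

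The recovered depth was 1751378 to 2095447 reads per library, so that 3 reads corresponded to 1.43 to 1.71 TPM. Of the 10 lymphoid progenitor markers examined, 8 were above 10 TPM on average, among them Flt3, Cd34 and Il7r, whereas Rag1 was at 2.20 TPM and Bst1 at 0.0912 TPM. All 7 stromal markers, all 4 erythroid markers and 3 of the 4 B-cell markers were at or below 1 TPM, and Col3a1, Dcn and Lum were at 0 in all 12 libraries. Lck was the only one of 5 T-cell markers above 1 TPM, and Itgam and Mpo were the only ones of 5 myeloid markers above it. The 3′ tags of the targeted genes did not follow the labels. In sgLmo2 by label, the Lmo2 level was 8.48, 24.4 and 15.9 TPM, and it ranged from 10.3 to 21.6 TPM with a median of 16.1 TPM in the 9 others (16.3 ± 7.99 TPM against 16.3 ± 3.71 TPM, SD, n = 3 and 9; exact two-sided permutation test, p = 0.964). Zbtb1 was highest in the libraries labelled sgZbtb1, at 106 TPM on average against 55.2 TPM in sgLmo2, and Cbfa2t3 was highest in those labelled sgCbfa2t3, at 349.8 against 173 TPM. The Cbfa2t2 mean was 21.9 TPM under the sgCbfa2t2 label and 15.3 TPM under sgLmo2. Tags from the 3′ end need not cover the edited sites and do not report the loss of a protein, so these levels are no check of the disruptions, and groups are named here by their labels. The study's own check was by immunoblot at an earlier time, where Lmo2, Zbtb1 and Cbfa2t3 protein was lost under the matching sgRNAs.

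Among the 11510 genes, 64 had an adjusted p under 0.05 between sgLmo2 and the 9 other knockout libraries (0.556% of genes tested; limma with Benjamini-Hochberg adjustment), of which 46 were higher (0.4%) and 18 lower (0.156%) in sgLmo2. DESeq2 on the recovered reads gave 80 genes, split into 41 higher and 39 lower. The smallest adjusted p among the genes lower was that of the transcription factor gene Irf8, and among the genes higher that of 5830411N06Rik, which encodes a scavenger receptor cysteine-rich protein. The median change was 1.76-fold among the genes higher and 1.51-fold among those lower. The 3 sgLmo2 libraries lay beyond all 9 others for 47 of the 64 genes, against 2.4% of all genes tested. The 64 were called on these same libraries, so this separation is no result about them. The count depended on single libraries, and it was 50 without sgLmo2 replicate 1, 24 without replicate 2 and 16 without replicate 3. It rose to 122 without sgCbfa2t2 replicate 2. In these bulk libraries, fewer cells of one kind and less RNA per cell cannot be told apart.

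**Figure D1:**
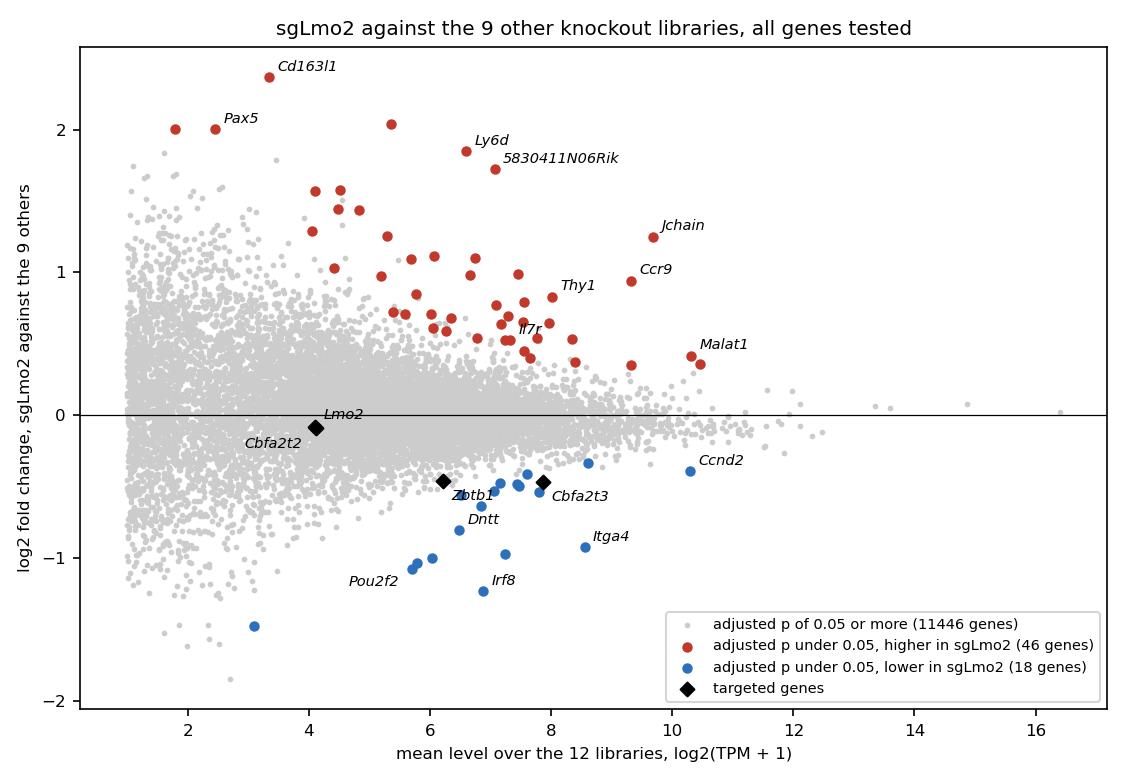
Each point is 1 of the 11510 genes tested, with its mean level over the 12 libraries, log2(TPM + 1), on the x axis and its log2 fold change between sgLmo2 and the 9 other knockout libraries on the y axis. Red points are the 46 genes higher and blue points the 18 genes lower in sgLmo2 at an adjusted p under 0.05, and black diamonds mark the 4 targeted genes, none of which passed.

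The gene with the smallest p was Irf8, a transcription factor that directs monocyte and dendritic cell differentiation and is also used in B cells. It lies on chromosome 8 (chr8:120736358-120756694, mm10). Irf8 was at 50.9, 58.2 and 61.9 TPM in the 3 sgLmo2 libraries, while the 9 others ranged from 110.2 to 166 TPM with a median of 129 TPM. All 3 sgLmo2 libraries were thus below every other knockout library, and Irf8 fell by 1.23 ± 0.12 (SE) on the log2 scale (adjusted p = 1.97e-08, limma). The mean was 153 TPM in sgZbtb1, 117 in sgCbfa2t2 and 138 in sgCbfa2t3, and the difference passed against each of them. The sgControl mean of 116 TPM was close to that of sgCbfa2t2, so that the sgLmo2 libraries stood below the control libraries too. Irf8 passed under each of the 23 alternative settings, with an adjusted p of at most 1.99e-05.

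Itga4, the integrin α4 chain that mediates adhesion to VCAM-1 and fibronectin (chr2:79255426-79333123), was also lower in every sgLmo2 library. Its level was 263, 198 and 212 TPM in sgLmo2 and ranged from 338 to 506 TPM with a median of 445 TPM in the 9 others (log2 fold change -0.92 ± 0.10 (SE), adjusted p = 1.20e-07). The means of sgCbfa2t2, sgZbtb1 and sgCbfa2t3 were 356, 438 and 483 TPM, and the sgControl mean of 299 TPM lay between these and sgLmo2. Pou2f2, which encodes the octamer-binding factor Oct-2, was at 26.0, 29.8 and 24.7 TPM against a range from 40.1 to 89.4 TPM with a median of 57.9 TPM (log2 fold change -1.08 ± 0.17 (SE), adjusted p = 2.17e-04). Its groups did not overlap, and at 46.9 TPM the sgControl mean was nearer to the other knockouts. Tmem119, a transmembrane protein best known as a microglia marker, fell to 27.7, 24.4 and 35.6 TPM from a range from 38.8 to 81.3 TPM with a median of 61.7 TPM (adjusted p = 0.00103). Dusp6, a phosphatase that inactivates ERK, was at 48.6, 40.6 and 23.6 TPM against 57.5 to 95.5 TPM (adjusted p = 3.39e-04). Both genes had sgControl means, 42.3 and 52.1 TPM, close to midway between the groups on the log scale.

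Dntt, the terminal transferase that adds N nucleotides at rearranging antigen receptor genes, was at 50.9, 65.0 and 51.5 TPM in sgLmo2 and ranged from 70.9 to 131 TPM with a median of 95.9 TPM in the others (log2 fold change -0.80 ± 0.15 (SE), adjusted p = 0.00205). The remaining 6 of the 12 lower genes with groups that did not overlap changed by less. Arid3a, an AT-rich DNA-binding factor of B cells and progenitors, was at 134 against 190.1 TPM on average (adjusted p = 0.0167), and Reep5, an endoplasmic reticulum shaping protein, at 163 against 240.1 TPM (adjusted p = 0.00977). Mtr, the methionine synthase, was at 66.1 against 98.0 TPM, and Gpatch4, a G-patch protein, at 99.1 against 143 TPM. Rcc1, the exchange factor of Ran, was at 132 against 185 TPM, and Fh1, the fumarase of the citric acid cycle, at 109 against 152 TPM. The log2 fold changes of these 6 genes lay between -0.56 and -0.47, and their adjusted p-values between 0.00502 and 0.0215. The sgControl means of Dntt, Arid3a, Reep5, Mtr, Gpatch4, Rcc1 and Fh1 were 78.2, 141, 156, 86.5, 115, 145 and 131 TPM, and that of Reep5 was below the sgLmo2 mean. Of the 12 genes, Irf8, Itga4, Pou2f2 and Tmem119 passed under every alternative setting. Tmem119 did not pass against sgCbfa2t2 alone, where its mean was 44.8 TPM (adjusted p = 0.288, limma). Without sgLmo2 replicate 3, the adjusted p was 0.0568 for Dntt, 0.0629 for Dusp6, 0.103 for Reep5, 0.174 for Mtr, 0.183 for Gpatch4, 0.251 for Arid3a and 0.330 for Fh1. Without sgLmo2 replicate 2 it was 0.308 for Rcc1, 0.290 for Mtr, 0.0600 for Arid3a and 0.0600 for Reep5. Without sgLmo2 replicate 1 it was 0.0543 for Arid3a, 0.0591 for Rcc1 and 0.0636 for Reep5. Fh1, Mtr, Rcc1 and Reep5 were also lost without the sgZbtb1 libraries (adjusted p of 0.0510 to 0.0972), Arid3a and Mtr without the sgCbfa2t3 libraries (0.0531 to 0.0941), and Arid3a, Mtr, Rcc1 and Reep5 with all genes above 0 (0.0915 to 0.106).

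On the other side, Ly6d, a surface protein that marks B-lineage-specified progenitors, was higher in sgLmo2 than in every other knockout library (chr15:74762056-74763620). It was at 179, 223 and 198 TPM in sgLmo2 against a range from 23.6 to 101 TPM with a median of 55.2 TPM (log2 fold change 1.85 ± 0.26 (SE), adjusted p = 3.57e-05). The other conditions differed among themselves, with means of 29.4 TPM in sgZbtb1, 57.9 in sgCbfa2t3 and 97.1 in sgCbfa2t2, and sgLmo2 passed against each. The sgControl mean of 158 TPM was near that of sgLmo2. The neighbouring genes Cd163l1 (chr7:140218267-140231145) and 5830411N06Rik (chr7:140247284-140300736) encode scavenger receptor cysteine-rich proteins known from γδ T cells, and both were higher. Cd163l1 was at 22.6, 20.5 and 22.5 TPM in sgLmo2 and ranged from 0 to 11.8 TPM with a median of 3.34 TPM in the others, with sgControl at 19.0 TPM (log2 fold change 2.37 ± 0.50 (SE), adjusted p = 0.0122). 5830411N06Rik was at 323, 221 and 277 TPM against a range from 51.2 to 140.5 TPM with a median of 79.9 TPM, with sgControl at 163 TPM (log2 fold change 1.72 ± 0.19 (SE), adjusted p = 1.38e-07). The 3 sgLmo2 libraries exceeded all 9 others for both genes.

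Pax5, the B-lineage commitment factor that acts downstream of Ebf1, was low in all groups. Its level was 9.05, 18.1 and 6.57 TPM in sgLmo2 and ranged from 0 to 6.28 TPM with a median of 1.60 TPM in the others, with the sgControl mean at 6.80 TPM (log2 fold change 2.01 ± 0.47 (SE), adjusted p = 0.0250). Il2rb, the receptor chain shared by IL-2 and IL-15, was at 53.7, 75.8 and 65.2 TPM against 8.84 to 44.5 TPM (adjusted p = 0.0215). The lowest Il2rb levels were those of sgZbtb1, at 13.9 TPM on average. P2ry10, a lysophosphatidylserine receptor of lymphocytes, was at 86.5, 89.5 and 75.6 TPM against 28.2 to 53.8 TPM (adjusted p = 1.74e-04), and Gprin3, a G-protein-regulated inducer of neurite outgrowth, was at 97.8, 122 and 107 TPM against 28.0 to 71.5 TPM (adjusted p = 3.72e-04). Adgre1, which encodes the macrophage antigen F4/80, was at 152, 208 and 158 TPM against 37.8 to 121 TPM (adjusted p = 0.00385). The sgControl means of Il2rb, P2ry10, Gprin3 and Adgre1 were 50.2, 53.9, 89.4 and 110.4 TPM. The 12 genes in each direction were chosen among those whose groups did not overlap, so this separation is no result about them.

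The last 4 of the 12 higher genes were Drc1, a regulator of ciliary dynein, at 30.7 against 11.2 TPM, Cpne2, a copine that binds phospholipids, at 39.1 against 15.3 TPM, Crybg1, a crystallin-domain protein, at 28.2 against 11.4 TPM, and Map3k8, the kinase Tpl2, at 33.0 against 16.2 TPM. Their log2 fold changes lay between 1.03 and 1.57, and the sgControl means were 20.2, 38.2, 14.0 and 23.3 TPM. Cpne2 thus had nearly the same mean in sgControl as in sgLmo2, whereas Crybg1 in sgControl was nearer to the other knockouts. Of the 12 genes, Ly6d, 5830411N06Rik, Gprin3 and P2ry10 passed under every alternative setting. The calls of Cd163l1, Pax5, Drc1, Cpne2, Crybg1, Il2rb and Map3k8 were lost whichever 1 of the sgLmo2 libraries was left out, with adjusted p-values of 0.0543 to 0.169 without replicate 1, 0.104 to 0.328 without replicate 2 and 0.0643 to 0.195 without replicate 3. Cd163l1 and Pax5 were also lost with log2(TPM + 0.1) (adjusted p = 0.108 and 0.162), and Crybg1, Map3k8 and Pax5 without the sgZbtb1 libraries (0.0545, 0.0608 and 0.0854). Map3k8 was lost without the sgCbfa2t3 libraries (0.0759). Adgre1 was lost without sgLmo2 replicate 2 (adjusted p = 0.139) and in DESeq2 (0.0980). With all genes above 0, these 8 genes were lost. Outside the naming rule, and chosen after their values were seen, the long noncoding RNA H19 was at 82.8 against 25.8 TPM (log2 fold change 2.04 ± 0.39 (SE), adjusted p = 0.00343), the chemokine receptor Ccr9, which guides progenitors to the thymus and gut, at 981 against 527 TPM (adjusted p = 2.40e-04), and Jchain, the joining chain of polymeric immunoglobulins, at 1341 against 647 TPM (adjusted p = 0.0174). The H19 and Jchain levels of sgCbfa2t2, 50.5 and 984 TPM on average, lay between those of sgLmo2 and sgZbtb1, which had 8.17 and 264 TPM, and their groups overlapped. The sgControl means of H19, Ccr9 and Jchain were 56.0, 923 and 1069 TPM. Jchain was lost without sgLmo2 replicate 2 or 3 (adjusted p = 0.183 and 0.210), in DESeq2 (0.283) and with all genes above 0 (0.242). H19 was lost without sgLmo2 replicate 2 or 3 (0.0600 and 0.0799) and with all genes above 0 (0.119).

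**Figure D2:**
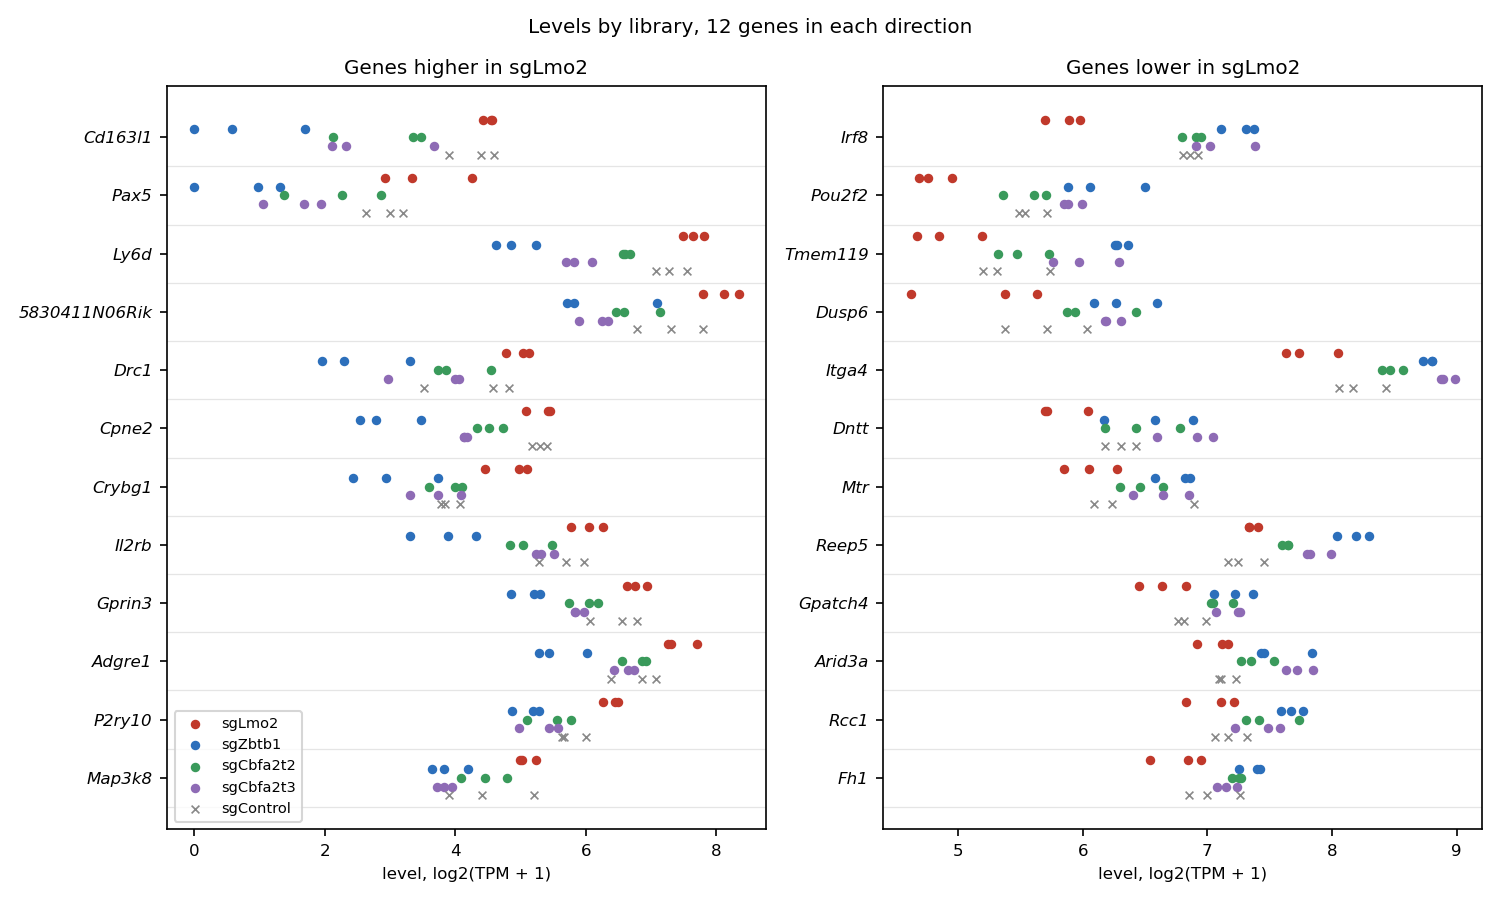
Levels of the 12 higher (left) and 12 lower (right) genes by library on the log2(TPM + 1) scale, ordered by the size of the change. Each point is 1 library, in red for sgLmo2, blue for sgZbtb1, green for sgCbfa2t2 and purple for sgCbfa2t3, and grey crosses are the 3 sgControl libraries that were not in the fit. By the rule that chose the genes, the 3 sgLmo2 libraries lie beyond all 9 others in each.

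The 9 other libraries are 3 conditions and not replicates of 1 condition, so each difference was also taken against each condition. All 64 genes had the same sign against sgZbtb1, sgCbfa2t2 and sgCbfa2t3, compared with 6246 of all 11510 genes tested (54.3%). Of the 64, 19 passed against all 3 (14 higher and 5 lower), 28 against 2 and 17 against 1. Against sgZbtb1, 62 of the 64 passed (4.9% of all genes tested passed in that contrast), against sgCbfa2t3 47 (0.704%) and against sgCbfa2t2 21 (0.209%). These contrasts share the sgLmo2 libraries with each other and all 12 libraries with the pooled comparison, so the counts are a description. The difference was largest against sgZbtb1 for 47 of the 64 genes, compared with 5144 of all 11510 genes (44.7%), and the median difference on the log2 scale was 0.98 against sgZbtb1, 0.75 against sgCbfa2t3 and 0.53 against sgCbfa2t2. The 3 other conditions differed among themselves in 26 of the 64 genes (F test in limma, adjusted p under 0.05, chosen after seeing the data), against 1.85% of all genes tested.

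The 19 genes that passed against each condition were, beside Irf8, Itga4, Pou2f2, Dusp6 and the globin Hbb-bt on the lower side, Ly6d, 5830411N06Rik, Gprin3, Adgre1, P2ry10, Nav1, Ccr9, Thy1, Xbp1, Gas7, Hoxa5, Enah, Il7r and Malat1 on the higher side. Gas7, a growth-arrest-associated actin regulator, had nearly equal means in the other conditions, 28.8, 28.3 and 28.6 TPM, against 56.1 TPM in sgLmo2 and 32.2 TPM in sgControl. Xbp1, the transcription factor of the unfolded protein response, was at 195 TPM in sgLmo2 and at 97.6, 122 and 129.6 TPM in the others, with sgControl at 129.6 TPM. Hoxa5, a homeobox factor, was at 342 TPM in sgLmo2 and at 305 TPM in sgControl, above the 3 other means of 189 to 236 TPM. Gas7, Xbp1 and Hoxa5 were not reached by the naming rule and were picked after their values were seen. Without sgLmo2 replicate 2, the adjusted p was 0.0585 for Gas7 and 0.0712 for Xbp1, and without replicate 3 it was 0.0552 for Gas7 and 0.0552 for Hoxa5. Over all alternative settings, the call of Xbp1 was lost in 2 of 23 and that of Enah in 1 of 23 (adjusted p of at most 0.0568 for Enah).

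The sgControl mean was nearer to sgLmo2 than to the pooled others for 45 of the 64 genes (35 of 46 higher and 10 of 18 lower) on the log2(TPM + 1) scale, compared with 6003 of all 11510 genes tested. These counts use the mean of the 9 pooled libraries and not each condition. In 19 genes, Irf8, Pou2f2, Crybg1, Gas7 and Xbp1 among them, sgControl was nearer to the pooled mean. The median difference between sgLmo2 and sgControl over the 64 genes was 0.29 on the log2 scale. No test was made of these positions, because sgControl was not part of the comparison.

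**Figure D3:**
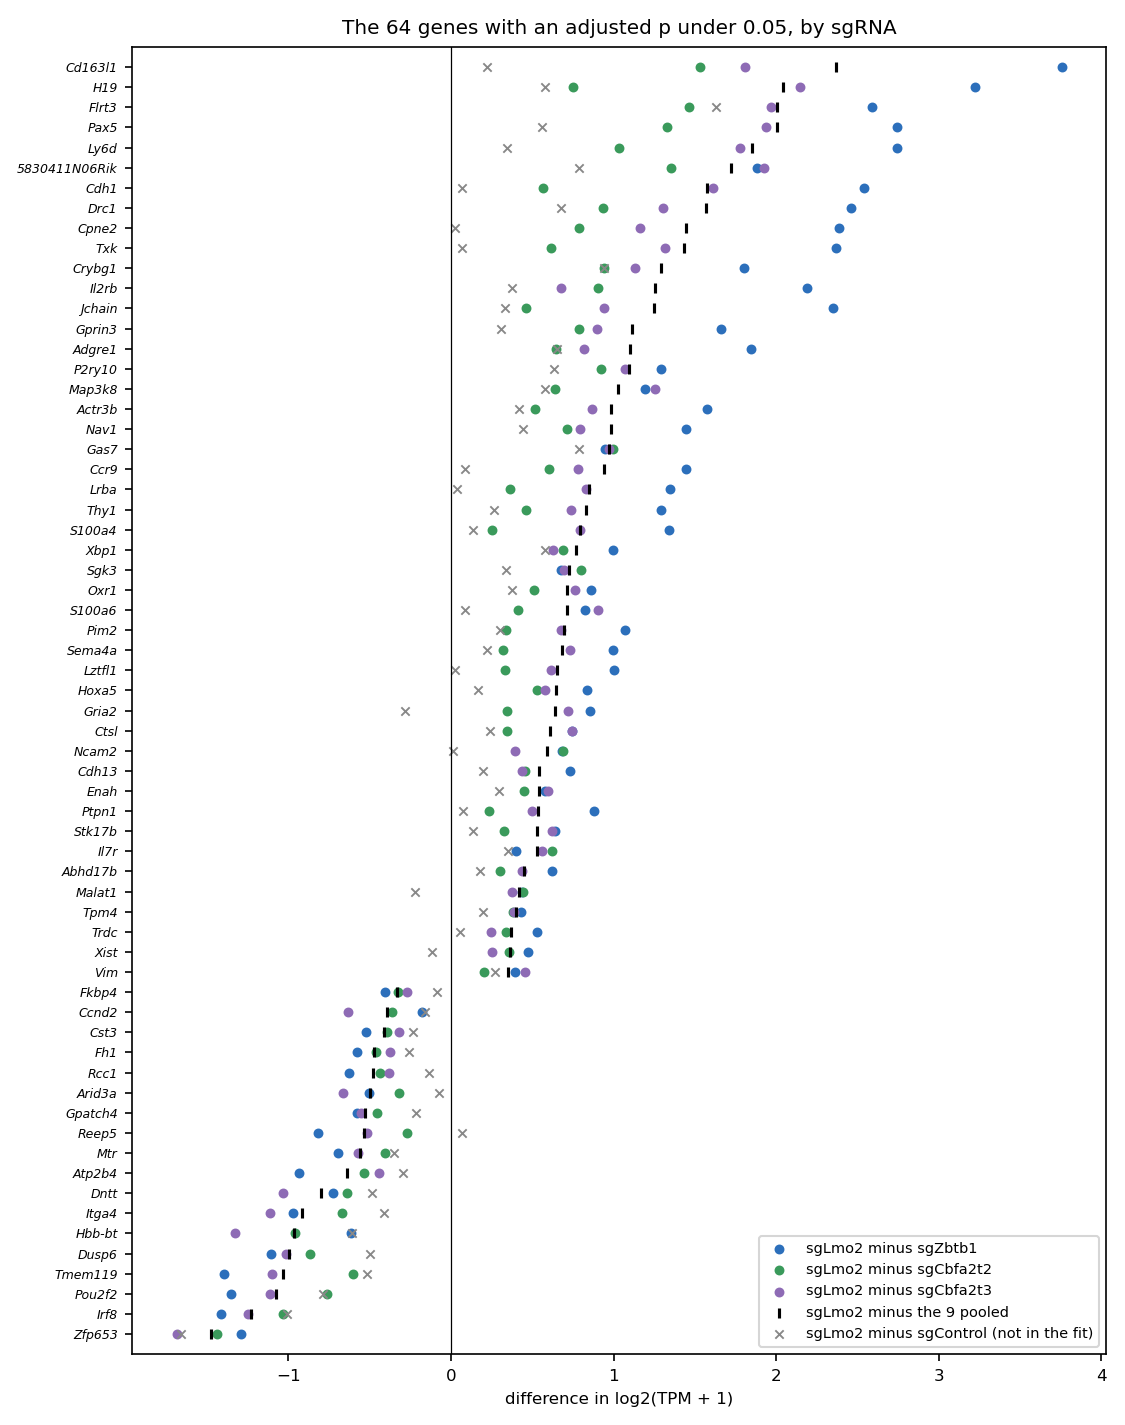
The 64 genes with an adjusted p under 0.05 are ordered by log2 fold change, with the difference of sgLmo2 on the x axis in log2(TPM + 1) against sgZbtb1 (blue), sgCbfa2t2 (green), sgCbfa2t3 (purple), the 9 pooled libraries (black ticks) and sgControl (grey crosses). The blue points lie farthest from 0 in 47 genes, and the grey crosses lie nearer to 0 than to the black tick in 45.

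Genes of T-lineage entry were of interest because the study concerned the T-lineage potential of these cells. Of 27 such genes, 20 were tested and 1 passed, compared with 0.556% of all genes tested. It was the surface glycoprotein Thy1, which was at 364, 397 and 374 TPM in sgLmo2 and ranged from 137 to 293 TPM with a median of 222 TPM in the others (log2 fold change 0.83 ± 0.14 (SE), adjusted p = 9.87e-04). The list median was 0.37, beside 0.03 over all genes tested, with 14 of 20 members above 0, compared with 6327 of all 11510 genes. The sgControl mean of Thy1 was 315 TPM, and its call was lost with all genes above 0 (adjusted p = 0.0601). Bcl11b, the factor that seals T-lineage commitment, was at 29.4, 18.1 and 28.5 TPM against a range from 4.30 to 24.5 TPM with a median of 6.20 TPM, and the groups overlapped. Its adjusted p was 0.0522 (log2 fold change 1.38 ± 0.35), and on its TPM values a two-sided permutation test, run exactly, gave p = 0.0182. That test takes the 9 others as alike, although they are 3 conditions. In limma, Bcl11b passed against sgZbtb1 (adjusted p = 1.40e-04) but not against sgCbfa2t2 (0.579) or sgCbfa2t3 (0.195). Bcl11b passed with the 4 sgRNAs as separate groups (adjusted p = 0.00498). The lowest Bcl11b levels were in sgZbtb1, at 5.26 TPM on average, and sgControl was at 21.1 TPM. The surface receptor Cd7 was at 20.3 against 6.52 TPM and sgControl at 20.1 TPM (adjusted p = 0.0704), and the kinase Zap70 was at 12.3 against 6.02 TPM without passing. Tcf7, the T-cell factor TCF-1, was near the limit of these libraries, with 0, 1 and 6 reads in sgLmo2 and 1 to 4 reads in the 9 others, which leaves a difference undetectable at this depth (exact two-sided permutation test, p = 0.746). Gata3 was at 36.6 against 30.9 TPM (adjusted p = 0.641) and Bcl11a, a progenitor and B-lineage factor, at 21.0 against 28.3 TPM (adjusted p = 0.448), with sgControl higher than both at 44.8 TPM.

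Among 28 B-lineage genes, 17 were tested and 4 passed, compared with 0.556% of all genes tested. Pax5, Ly6d and the interleukin-7 receptor gene Il7r were higher and Dntt was lower, with a list median of 0.14. Il7r was at 192, 216 and 209.8 TPM in sgLmo2 and ranged from 118 to 167 TPM with a median of 140.5 TPM in the others (log2 fold change 0.53 ± 0.10 (SE), adjusted p = 0.00267), with no overlap, and sgControl was at 161 TPM. Its adjusted p was 0.0712 without sgLmo2 replicate 2 and 0.0568 without replicate 3. Ebf1, the factor that these cells lack, still gave 3′ tags at 287 against 248 TPM (adjusted p = 0.375). Cd24a, a heat-stable antigen of immature lymphocytes, was at 125 against 84.1 TPM (adjusted p = 0.201). The B-cell markers Ms4a1 and Cd79a were at 0 in all 12 libraries.

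Of 28 myeloid and dendritic genes, 17 were tested and 2 passed, both lower in sgLmo2, compared with 0.156% of all genes called lower. Of the 17, 12 had a negative log2 fold change, compared with 45.0% of all genes tested, and the median was -0.24. Irf8 and Cst3, the cysteine protease inhibitor abundant in dendritic cells, were those that passed. Cst3 was at 148, 168 and 147 TPM against a range from 176 to 244 TPM with a median of 203 TPM (log2 fold change -0.41 ± 0.10 (SE), adjusted p = 0.0244), and its call was lost whichever 1 of the sgLmo2 libraries was left out (adjusted p = 0.133, 0.0600 and 0.244 without replicates 1, 2 and 3). It was also lost without the sgZbtb1 libraries (adjusted p = 0.109) and with all genes above 0 (0.0905). Mpo, the myeloperoxidase of granule-forming progenitors, was at 1.12 against 6.93 TPM (adjusted p = 0.0716), and Cebpa, a master factor of myeloid fate, at 5.03 against 11.9 TPM (adjusted p = 0.0939), neither of which passed. In the other direction, the signalling adaptor gene Tyrobp was at 190.4 against 142 TPM (adjusted p = 0.112) and the Fc receptor gene Fcgr3 at 77.1 against 64.7 TPM, and neither passed. Adgre1, also known from macrophages, went the other way. Of 20 innate lymphoid and NK genes, 8 were tested and 2 passed, Il2rb higher and Itga4 lower, compared with 0.556% of all genes tested. Of 20 erythroid and megakaryocyte genes, 3 were tested and 1 passed, against the same 0.556%. This was Hbb-bt, which was lower at 86.4 against 172 TPM (adjusted p = 3.63e-04), with groups that overlapped. Its tags may be shared with the near-identical Hbb-bs, so the call is uncertain for either gene.

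None of the 20 tested genes of the Lmo2 complex and its partners passed, and their median was -0.01. With the 4 sgRNAs as separate groups, Cbfa2t3 (adjusted p = 5.29e-04), Runx1 (0.00907) and Zbtb1 (0.0484) passed. Lyl1, the helix-loop-helix partner, was at 170.1 against 206 TPM (adjusted p = 0.237), Runx1 at 311 against 248 TPM (adjusted p = 0.256) and Cbfa2t3 at 173 against 252 TPM (adjusted p = 0.248). The Runx1 mean was 179.8 TPM in sgZbtb1 and 278 and 287 TPM in the other 2, and the Cbfa2t3 mean was 166 TPM in sgZbtb1, 239.9 TPM in sgCbfa2t2 and highest under the sgCbfa2t3 label. The adaptor Ldb1 was at 122 against 135 TPM and the E-protein genes Tcf3 and Tcf12 at 102 against 96.6 TPM and 169.9 against 152 TPM. No stem and progenitor gene passed among 21 (median 0.02), where Mycn was at 158 against 121 TPM (adjusted p = 0.0691), Myc at 28.1 against 43.6 TPM (adjusted p = 0.120) and Hoxa7 at 192 against 152 TPM (adjusted p = 0.162). Mycn and Myc passed with the 4 sgRNAs as separate groups (adjusted p = 0.0254 and 0.0441).

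Among 31 proliferation genes, all tested, Ccnd2, a D-type cyclin of lymphoid cells, was the 1 that passed (0.556% of all genes tested did) and was lower at 1011 against 1344 TPM (log2 fold change -0.39 ± 0.09 (SE), adjusted p = 0.0330). Its sgZbtb1 mean of 1150.2 TPM was nearest to sgLmo2, its groups overlapped and sgControl was at 1129.8 TPM. Without 1 library its adjusted p reached 0.0535 to 0.239 when sgCbfa2t2 replicate 3, sgCbfa2t3 replicates 1 or 2, or any 1 of the sgLmo2 libraries was left out. It was 0.148 without the sgCbfa2t3 libraries, 0.246 with all genes above 0, 0.0590 with log2(TPM + 0.1) and 0.0516 with a mean above 10 TPM, so that the call was lost in 10 of 23 settings. Of the 31 genes, 28 had a negative log2 fold change (90.3%, compared with 45.0% of all genes tested), with a median of -0.10. Their summed level was 9204 to 9519 TPM in sgLmo2, 9546 to 10805 TPM in the others and 9429 to 9610.0 TPM in sgControl. The sums of sgLmo2 and the other knockouts did not overlap, but the gap between 9519 and 9546 TPM was narrow. Ccnd2, at 1011 against 1344 TPM, is part of this sum, and the sum without it was not taken. Pcna, the sliding clamp of DNA replication, was at 142 against 172 TPM and the mitotic kinase Aurka at 77.5 against 93.8 TPM, and neither passed.

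Of the next 6 lists, none had a member that passed. Of 20 interferon and antigen presentation genes, 15 were above 0 (median 0.17), compared with 6327 of all 11510 genes tested. H2-K1 and H2-D1, near-identical class I genes whose tags may be shared, were at 240.1 against 182 TPM and 301 against 248 TPM (adjusted p = 0.169 and 0.271), and Nlrc5, their transactivator, at 11.8 against 5.30 TPM (adjusted p = 0.190). Of 22 cholesterol synthesis genes, 15 were above 0 (median 0.16), compared with the same 6327 of 11510, with Hmgcs1 at 197 against 156 TPM and Msmo1 at 124 against 105 TPM. Of 12 Bcl2 family genes, Bmf, a BH3-only death inducer, was at 19.9 against 8.82 TPM (adjusted p = 0.0871), Bak1 at 51.1 against 70.6 TPM and Bcl2 at 707 against 586 TPM (adjusted p = 0.284), and the median was 0.06. The medians of 20 p53 targets, 20 amino acid response genes and 18 glycolysis genes were 0.12, 0.05 and 0.04. Cdkn1a, the p53-induced cell cycle inhibitor, was at 481 against 564 TPM, Zmat3 at 82.5 against 63.9 TPM and Ddb2 at 14.7 against 8.58 TPM, while Shmt2 was at 222 against 258 TPM, Slc7a5 at 120.1 against 139 TPM, Ddit4 at 61.1 against 48.7 TPM, Pfkp at 87.3 against 68.7 TPM, Gapdh at 93.9 against 79.3 TPM and Tpi1 at 344 against 310.2 TPM. With the 4 sgRNAs as separate groups, H2-K1, H2-D1, Bmf, Bcl2 and Hmgcs1 passed (adjusted p = 0.00193, 0.0410, 0.0249, 0.0176 and 0.0398).

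Stromal transcripts were close to absent, with 2 of 24 genes above the filter, Timp3 at 3.88 against 1.62 TPM and Pdgfrb at 7.02 against 4.66 TPM. Their sum was 9.29 to 13.0 TPM in sgLmo2, 1.91 to 11.7 TPM in the others and 11.0 to 12.2 TPM in sgControl. Of 17 genes that follow RNA quality, such as nuclear and mitochondrial transcripts, 12 were tested, 11 were above 0, compared with 6327 of all 11510 genes, and 1 passed, compared with 0.556% of all genes. This was the nuclear RNA Malat1, which was higher, at 1444, 1405 and 1869 TPM against a range from 863 to 1359 TPM with a median of 1235 TPM (log2 fold change 0.42 ± 0.09 (SE), adjusted p = 0.0167). The call was lost without sgLmo2 replicate 3 (adjusted p = 0.410) and with all genes above 0 (0.168), and sgControl was higher still at 1823 TPM. The sum of the 12 genes was 62225 to 64978 TPM in sgLmo2 and 51099 to 65962 TPM in the others, which overlapped, and 69031 to 70701 TPM in sgControl, and its part in the other results was not tested.

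**Figure D4:**
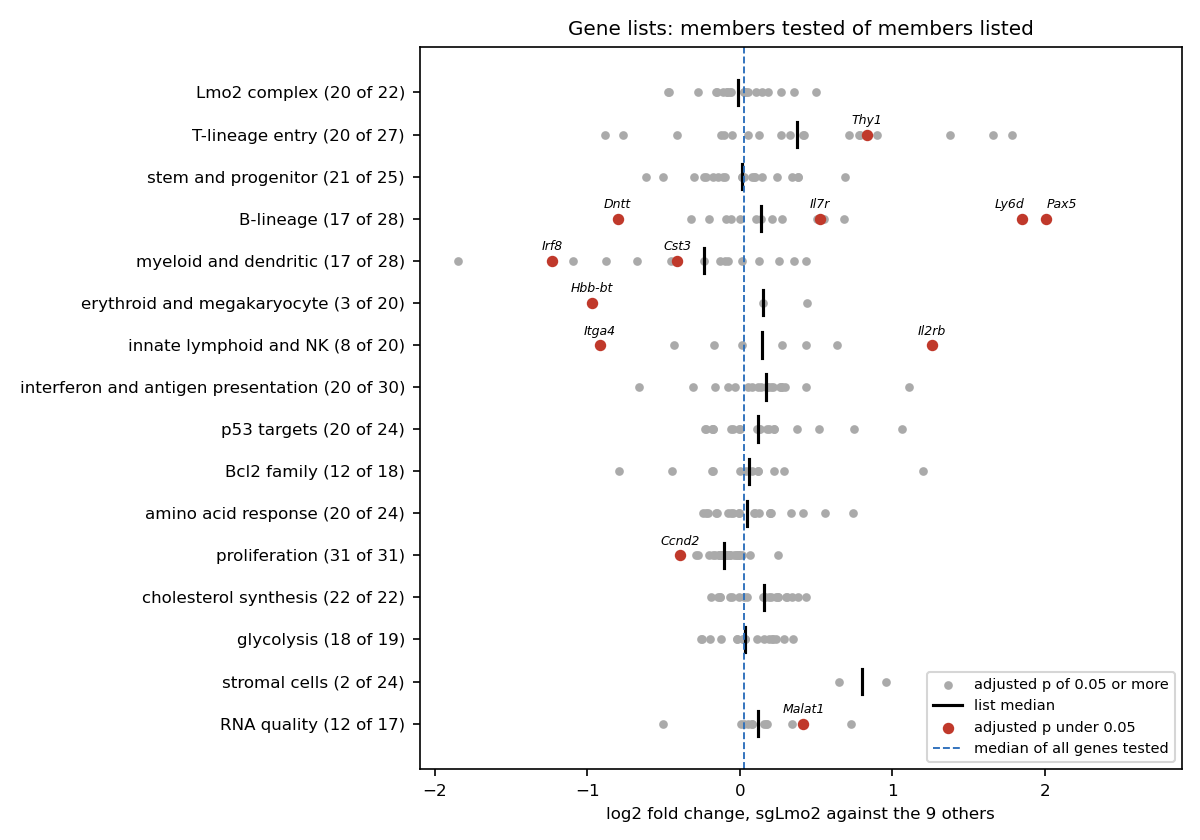
The x axis gives the log2 fold change between sgLmo2 and the 9 other knockout libraries, and each row is 1 of the 16 gene lists with the members tested of those listed. Grey points are members that did not pass, red labelled points those with an adjusted p under 0.05, black ticks the list medians and the dashed line the median of all genes tested (0.03).

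The thresholds that the study used for differentially expressed genes (DEGs; unadjusted p under 0.05, a log2 fold change beyond 1 in either direction and at least 1 group averaging above 10 TPM) gave 48 DEGs in this comparison (0.417% of genes tested), 44 higher (0.382%) and 4 lower (0.0348%) in sgLmo2. Of these, 19 also had an adjusted p under 0.05. Only the thresholds are the study's: p and fold change here came from the limma fit on log2(TPM + 1), and the study set knockouts against its control. The 4 lower DEGs were Irf8, Pou2f2, Tmem119 and Cebpa. Bcl11b, Cd7, Bmf and Nlrc5 were among the 44 higher DEGs although their adjusted p-values did not pass. Without sgLmo2 replicate 1 the count of DEGs was 110, and leaving out 1 library at a time gave 39 to 110. The count also rose without the sgCbfa2t2 libraries, and it fell without the sgZbtb1 libraries and with a mean above 10 TPM, as given below.

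To place the genes beside chromatin occupancy, peaks from ChIP-seq of Zbtb1 and Cbfa2t3 in LPs were assigned to the nearest promoter as annotated in the deposited peak lists. Of the 64 genes, 34 (53.1%) had at least 1 Cbfa2t3 peak, compared with 20.6% of all genes tested, and the share was 24 of 46 among the higher and 10 of 18 among the lower genes. For Zbtb1 peaks it was 28 of 64 (43.8%), compared with 26.8%. The genes tested were not matched to the 64 by expression level, and the cause of these differences was not tested. Lmo2 occupancy was not analysed here. Irf8 had 8 Cbfa2t3 peaks, the strongest with a score of 78.6 and 38674 bases downstream of the start site. Tmem119 had 4, Itga4, Dusp6 and Reep5 1 each, Dntt 2 with a top score of 168, and Arid3a 2 with a top score of 316. On the higher side, Il2rb, Adgre1 and Map3k8 had 3 each, Gprin3 2, and Cd163l1 and Drc1 1 each. Ly6d, 5830411N06Rik, Pax5, P2ry10, Cpne2 and Crybg1 on that side were not the nearest gene of any. On the lower side, Pou2f2, Mtr, Gpatch4, Rcc1 and Fh1 were not either.

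The central 200 bases of the strongest Cbfa2t3 peak are shown for the 3 genes with the largest changes among those of the 12 lower and of the 12 higher genes above that had one, because Runx factors, E proteins and Gata factors are the DNA-binding partners through which Lmo2 and Cbfa2t3 are known to reach DNA. Sequences are of the mm10 plus strand, 5′ to 3′, from chr8:120777214-120777413 (Irf8, intergenic), chr5:113800316-113800515 (Tmem119, promoter), chr10:99268795-99268994 (Dusp6, intergenic), chr7:140213984-140214183 (Cd163l1, intergenic), chr5:30353783-30353982 (Drc1, intron 6) and chr15:78512055-78512254 (Il2rb, intergenic). Capitals mark the letters of any of 3 motifs on either strand. The Runx core was searched as TGTGGT. The E-box, which E proteins bind, was searched as CAGNTG, and the site of Gata factors as AGATAA.
Irf8: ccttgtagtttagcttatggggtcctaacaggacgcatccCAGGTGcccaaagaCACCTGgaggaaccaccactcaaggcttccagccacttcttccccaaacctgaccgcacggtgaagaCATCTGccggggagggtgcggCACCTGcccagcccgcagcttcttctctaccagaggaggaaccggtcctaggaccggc
Tmem119: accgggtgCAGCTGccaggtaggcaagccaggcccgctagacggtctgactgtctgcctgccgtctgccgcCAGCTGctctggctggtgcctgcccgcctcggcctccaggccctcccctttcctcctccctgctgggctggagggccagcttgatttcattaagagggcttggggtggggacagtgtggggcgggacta
Dusp6: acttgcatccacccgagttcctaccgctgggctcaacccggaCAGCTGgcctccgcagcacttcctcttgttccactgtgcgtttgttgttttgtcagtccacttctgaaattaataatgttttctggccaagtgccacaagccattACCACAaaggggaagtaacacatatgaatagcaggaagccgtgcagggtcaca
Cd163l1: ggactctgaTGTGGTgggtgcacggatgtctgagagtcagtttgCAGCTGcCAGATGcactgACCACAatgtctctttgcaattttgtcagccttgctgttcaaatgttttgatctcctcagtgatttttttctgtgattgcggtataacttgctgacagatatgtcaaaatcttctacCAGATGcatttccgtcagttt
Drc1: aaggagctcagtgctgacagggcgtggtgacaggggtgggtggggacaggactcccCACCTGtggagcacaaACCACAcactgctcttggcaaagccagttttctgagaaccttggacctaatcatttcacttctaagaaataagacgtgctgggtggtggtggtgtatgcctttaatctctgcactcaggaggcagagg
Il2rb: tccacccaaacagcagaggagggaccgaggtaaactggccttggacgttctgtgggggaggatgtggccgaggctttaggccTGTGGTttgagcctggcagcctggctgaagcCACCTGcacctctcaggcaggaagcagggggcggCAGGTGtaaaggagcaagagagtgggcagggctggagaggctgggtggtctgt

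CAGNTG occurred in all 6 windows, 4 times at Irf8 and 3 times at Cd163l1, and it was present in 83.2% of 5647 windows of the same length at all Cbfa2t3 peaks on assembled chromosomes. TGTGGT was found at Dusp6, Cd163l1, Drc1 and Il2rb but in neither the Irf8 nor the Tmem119 window, compared with 43.8% of all windows. AGATAA was in none of the 6 and in 6.41% of all windows. The Il2rb window lay in the only one of the 6 peaks that overlapped a Zbtb1 peak (score 60.9, against 112 for Cbfa2t3). A match describes the letters in these windows and not a binding site.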

How the data were processed

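QuantSeq 3′ mRNA libraries of LPs were analysed from the table of the series, whose values the authors deposited as TPM after fastp and STAR. The deposited values were CPM, not divided by gene length, and whole reads were recovered from them at a tolerance of 0.001 TPM. The gene length column was deposited by the authors and was not used in a test. ChIP-seq peak lists hold the signal that the authors deposited as the HOMER peak score (Bowtie 1.1.1, mm10), 1 list per factor of the peaks that were reproducible between replicates. 1 line without a gene was left out.

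Groups followed the labels. limma 3.58.1 in R 4.3.3 (lmFit, eBayes with trend) was run on log2(TPM + 1) over 11510 genes with a mean above 1 TPM in the 12 libraries, sgLmo2 (3) against the others (9), with Benjamini-Hochberg adjustment. A fold change on this scale understates that of low genes. Targeted genes and those the study names were tested by exact two-sided permutation over 220 splits, where the smallest p is 0.00909. These splits take the 9 others as alike, although they are 3 conditions. Alternatives used edgeR 4.0.16, DESeq2 1.42.0, other scalings, filters and pseudocounts, left-out libraries and the replicate block. On counts simulated for this comparison over 11352 genes, 83% of 2-fold and 100% of 4-fold changes were called, beside 8 unchanged genes. The changed genes were drawn only from those with a mean above 10 TPM, and the 9 others shared 1 mean. These shares thus do not cover lower genes or differences among the 3 pooled conditions.

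Named genes were the targeted genes, genes the study names, up to 12 in each direction (adjusted p under 0.05, above 10 TPM in either group, sgLmo2 beyond all others, by fold change), and called members or examples of 16 lists. The comparison, members and lists were chosen with earlier results of these data known. Gene positions are those of GENCODE on mm10, and sequences were read from the mm10 genome with samtools 1.23.1. Some genes are not reported here. The limit of 3 reads covers counting error only.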

Additional observations from a re-analysis of the deposited data

Results flagged for a closer look

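The pooled group joined 3 conditions, and for the genes below they differed among themselves (F test in limma over sgZbtb1, sgCbfa2t2 and sgCbfa2t3, adjusted over all genes tested, chosen after seeing the data), so that the difference from sgLmo2 was not of 1 size. The adjusted p of this F test was 9.19e-12 for Ly6d, with means of 29.4, 97.1 and 57.9 TPM in sgZbtb1, sgCbfa2t2 and sgCbfa2t3. It was 3.52e-08 for Adgre1 (48.0, 109.6 and 96.9 TPM), 3.87e-06 for Il2rb (13.9, 34.5 and 40.0 TPM) and 6.71e-07 for Thy1 (156, 275 and 227 TPM). Among the other higher genes it was 0.00238 for Cd163l1, 0.0125 for Drc1, 0.000285 for Cpne2 and 0.000386 for Gprin3, and in these sgZbtb1 had the lowest mean. Among the lower genes it was 0.0168 for Tmem119, 0.00693 for Itga4, 0.00135 for Reep5, 0.00434 for Hbb-bt and 0.000501 for Ccnd2. Among the targeted genes, 2 were also unequal, Zbtb1 with 0.00255 and Cbfa2t3 with 4.23e-10, each highest under its own sgRNA label. Genes that did not pass against the pooled group included Bcl2 (1.53e-05), Runx1 (1.78e-06), H2-K1 (3.93e-06), H2-D1 (0.000945), Cdkn1a (0.000279), Hmgcs1 (0.016) and Gapdh (0.0235).

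In 1 of 64 genes checked, a library stood apart within the 9 others. Bak1 in sgCbfa2t3 replicate 2 was the lowest of 9, with a gap to the next library of 0.502 of the group's range, and chance alone marks about 1 group in 20.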

How the results depend on the processing

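The count of 64 genes was 192 with the 4 sgRNAs as separate groups, 219 without the sgCbfa2t2 libraries, 42 without the sgZbtb1 libraries and 25 with all genes above 0, where more genes were tested. The count of 48 DEGs was 82 without the sgCbfa2t2 libraries, 24 without the sgZbtb1 libraries and 28 with a mean above 10 TPM. Leaving out 1 library at a time gave 16 to 122 genes and 39 to 110 DEGs. With the replicate block the count was 77 genes, and the numbers did not pair the libraries, since the mean correlation of deviations was 0.0236 over 18 same-numbered pairs and -0.0118 over 36 others. DESeq2 gave 80 genes, 44 of them shared with the 64, and edgeR gave 62, with 58 shared. The small differences of 2 targeted genes turned. Lmo2 was at 0.033 and Cbfa2t2 at 0.15 on the log2 scale without the sgCbfa2t2 libraries, and leaving out 1 library gave -0.42 to 0.29 for Lmo2 and -0.29 to 0.25 for Cbfa2t2. The cause was not tested. Of the 64 genes, 11 passed under every one of 23 alternatives. At 1751378 to 2095447 reads per library, genes near 1 TPM rest on few reads.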

Other observations

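Further genes with an adjusted p under 0.05 that no list holds were picked here after their values were seen. Txk, a Tec-family kinase of T cells, was higher in sgLmo2 at 49.5 against 20.1 TPM, and so was Trdc, the T-cell receptor δ constant region, at 402 against 312 TPM. The adhesion molecule Cdh1 was at 40.2 against 15.7 TPM and the intermediate filament gene Vim at 761 against 599.9 TPM, while S100a4 and S100a6, calcium-binding proteins, were at 265 against 160.1 TPM and 66.3 against 40.8 TPM. The sgControl means of Txk, Cdh1 and S100a4, 46.0, 38.2 and 242 TPM, were nearer to sgLmo2 than to the pooled others, and that of Vim, 633 TPM, was nearer to the pooled others. On the lower side, the calcium pump gene Atp2b4 was at 79.5 against 126 TPM and the cochaperone gene Fkbp4 at 327 against 413 TPM. These calls were lost in part of the alternative settings, 9 of 23 for Trdc, 8 of 23 for Vim, 7 of 23 for S100a6, 6 of 22 for Txk, 5 of 23 for S100a4, 5 of 23 for Fkbp4, 4 of 22 for Cdh1 and 4 of 23 for Atp2b4. Without sgLmo2 replicate 3, the adjusted p was 0.354 for Trdc and 0.330 for Txk.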
